A study of Mus musculus with 6 samples.

Results

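The 9 genes described here encode enzymes of the tricarboxylic acid (TCA) cycle together with the cytosolic isocitrate dehydrogenase Idh1. They were taken by symbol (Idh1, Idh2, Idh3a, Cs, Ogdh, Suclg1, Sdha, Fh1 and Mdh2) from a table of raw counts with 17523 entries, and all 9 had a row. RNA was sequenced from FACS-sorted bone marrow cells of C57BL/6 mice, with 3 libraries of wild-type (WT) mice and 3 of the NHD13 mutant. In NHD13 mice a NUP98-HOXD13 fusion, of a nuclear pore gene and a homeobox gene, is expressed, and these animals are used to model myelodysplastic syndrome, in which blood cells mature poorly and leukaemia may follow. The series calls the cells hematopoietic stem cells (HSCs). No source used here gives the sort markers, the promoter that drives the fusion, the age and sex of the mice, or whether a library is 1 mouse or a pool. The spread behind the p-values below is thus that of these libraries, and it may be technical.

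The cycle oxidises acetyl groups in the mitochondrial matrix. Citrate synthase (Cs) starts it, isocitrate is oxidised to 2-oxoglutarate, and the steps from 2-oxoglutarate over succinate and fumarate to malate return oxaloacetate through malate dehydrogenase (Mdh2). Isocitrate is oxidised by separate enzymes: the NAD-dependent enzyme of the cycle, a complex of Idh3a, Idh3b and Idh3g, and the NADP-dependent enzymes Idh2 in mitochondria and Idh1 in the cytosol, which yield NADPH. IDH1 and IDH2 are known as genes that can be mutated in myeloid malignancies, and 2-oxoglutarate is the cosubstrate of dioxygenases such as the TET enzymes.

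Library totals ran from 12541538 to 14388772 counts. The row named for the fusion had 0 counts in every WT library and 167 to 185 counts in the NHD13 libraries, as the labels say. Levels are given as CPM, counts per 1000000 counts of the library after TMM scaling. Of the stem cell markers, Procr was at 0.0691 to 0.553 CPM and Fgd5 at 0 to 0.209 CPM, where 3 counts correspond to 0.208 to 0.239 CPM, while Kit was at 216 to 269 CPM and the granulocyte precursor gene Mpo at 5055 to 9703 CPM. Procr and Fgd5 were thus close to the detection limit, while other genes of the same long-term HSC list were detected in WT, among them Mllt3 at 28.6 to 34.5 CPM, Hlf at 13.4 to 16.4 CPM and Ly6a at 12.6 to 23.6 CPM. In bulk samples a change in the share of a cell type and a change of RNA per cell cannot be told apart. NHD13 replicate 1 stood apart from NHD13 replicates 2 and 3 on the second principal component (28.2 against -9.44 and -14.1, 12.3% of the variance). The libraries also differed in Xist, with 28 and 34 counts in NHD13 replicates 2 and 1 and 5852 to 15472 in the other 4. Y-linked genes made up 0.028% and 0.0248% of the counts in NHD13 replicates 2 and 1 and 0.0109% to 0.0194% in the other 4. All 3 WT libraries were thus high in Xist, as was NHD13 replicate 3 alone of its group, so these differences went partly with the group.

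The 2 NADP-dependent isocitrate dehydrogenase genes fell in NHD13, and 3 genes of the cycle proper, Idh3a, Cs and Mdh2, rose. The other 4, Ogdh, Suclg1, Sdha and Fh1, did not pass the threshold, an adjusted p under 0.05 in edgeR's quasi-likelihood test with Benjamini-Hochberg adjustment over 12013 tested genes. Every member passed the filter on low counts, since none had fewer than 875 counts in any library. So 5 of 9 members passed where 30.3% of all tested genes did, 3 higher where 15% of all tested genes were and 2 lower where 15.3% were. The median log2 change of the 9 was 0.10, against 0.0011 over all tested genes. The groups did not overlap for 7 of the 9, where this held for 46.1% of the tested genes: 5 members were higher (23.5% of all tested genes) and 2 lower (22.6%).

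**Figure D1:**
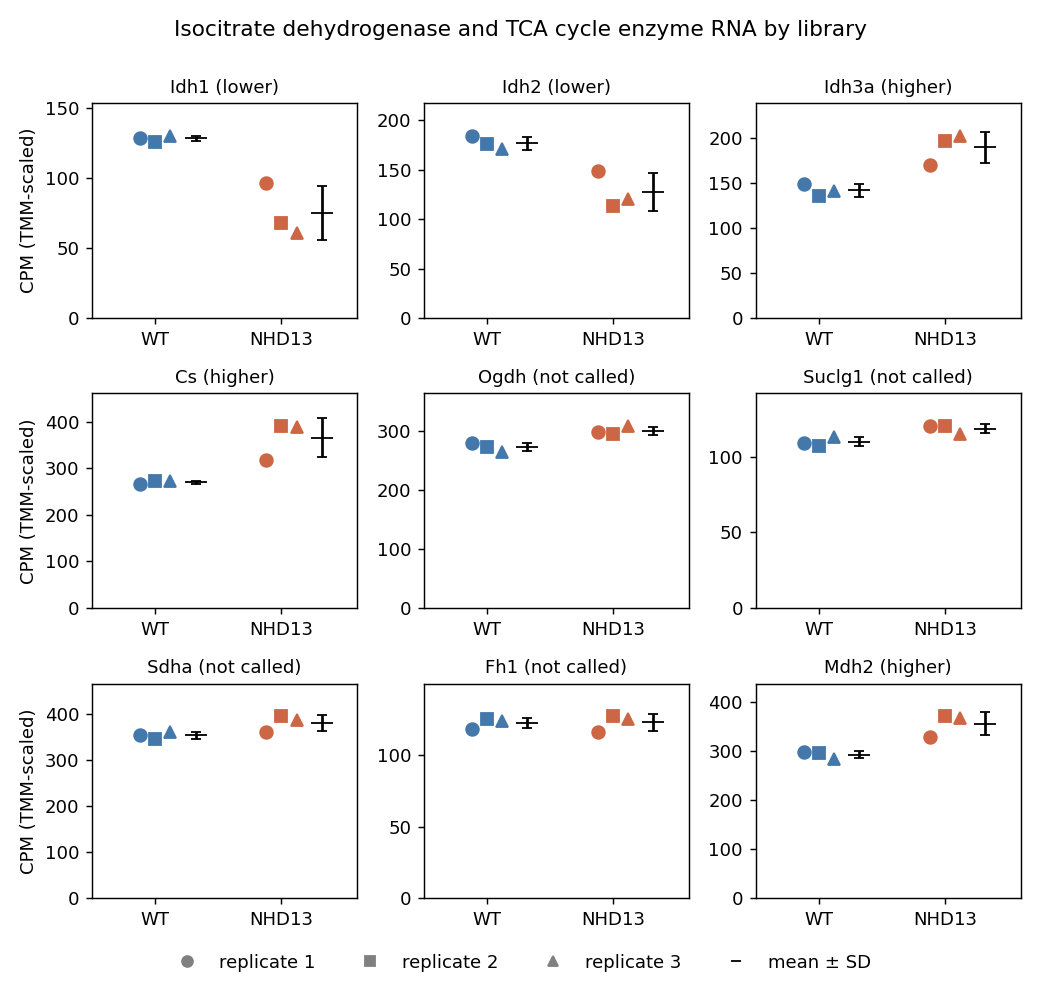
TMM-scaled CPM of each member (y axis, from 0) in the 3 WT and 3 NHD13 libraries, with the mean ± SD beside the points; the panel titles give the call in the edgeR test. Idh1 and Idh2 lie lower in all 3 NHD13 libraries, Idh3a, Cs and Mdh2 lie higher, and the libraries of the groups overlap for Sdha and Fh1.

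Idh1 (mm10 chromosome 1, 65158616 to 65186500, minus strand) had the largest change of the 9. It was at 129, 126 and 130 CPM in WT replicates 1, 2 and 3 and at 96.5, 68.1 and 60.5 CPM in NHD13 replicates 1, 2 and 3. All WT libraries lay above all NHD13 libraries, and the NHD13 libraries were spread far more widely than the WT libraries. The means were 128 CPM ± 2.2 (SD, n = 3) and 75 CPM ± 19 (n = 3), a 1.71-fold fall (log2 change -0.77, SE 0.15, adjusted p = 0.00718). Idh2 (chromosome 7, 80094846 to 80115392, minus strand) was at 184, 176 and 171 CPM in WT and at 149, 113 and 120 CPM in NHD13. These libraries did not overlap either, and NHD13 replicate 1 was again the one nearest to WT. Idh2 fell 1.39-fold, from 177 CPM ± 6.83 to 127 CPM ± 19 (log2 change -0.48, SE 0.10, adjusted p = 0.0101).

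The promoters of Idh1 and Idh2, which fell, and of Cs and Mdh2, which rose, are shown because these genes passed the test, in opposite directions. Each is the 250 bases before the start of transcription that RefSeq lists (build GRCm38.p6, which is mm10), written from 5′ to 3′ on the strand of the gene. Where RefSeq lists several starts, the one nearest to the start of the GENCODE gene was taken. For Idh1, Idh2 and Mdh2 the GENCODE gene begins within the stretch (at 65186500, 80115392 and 135778480), so part of it may be transcribed. Both GC boxes of Idh2 lie in that part. Capitals mark matches, on either strand, to the letters CCAAT (the CCAAT box) or GGGCGG (the GC box bound by SP1).
Idh1, chr1:65186480-65186729, minus strand: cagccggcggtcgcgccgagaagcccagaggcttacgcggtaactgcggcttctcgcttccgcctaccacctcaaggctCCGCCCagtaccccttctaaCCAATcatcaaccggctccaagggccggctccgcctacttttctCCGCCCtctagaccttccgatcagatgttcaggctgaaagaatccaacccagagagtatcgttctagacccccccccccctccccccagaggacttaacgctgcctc
Idh2, chr7:80115351-80115600, minus strand: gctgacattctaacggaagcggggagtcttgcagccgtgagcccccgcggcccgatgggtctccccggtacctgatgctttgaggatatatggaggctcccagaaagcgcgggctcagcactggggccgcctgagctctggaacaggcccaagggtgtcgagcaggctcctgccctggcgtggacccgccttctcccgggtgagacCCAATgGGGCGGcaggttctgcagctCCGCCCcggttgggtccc
Cs, chr10:128337477-128337726, plus strand: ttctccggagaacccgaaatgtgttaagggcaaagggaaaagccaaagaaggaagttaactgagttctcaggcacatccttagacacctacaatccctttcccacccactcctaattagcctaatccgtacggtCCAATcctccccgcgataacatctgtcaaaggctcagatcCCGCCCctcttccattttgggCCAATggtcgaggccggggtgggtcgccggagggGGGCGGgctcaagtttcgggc
Mdh2, chr5:135778399-135778648, plus strand: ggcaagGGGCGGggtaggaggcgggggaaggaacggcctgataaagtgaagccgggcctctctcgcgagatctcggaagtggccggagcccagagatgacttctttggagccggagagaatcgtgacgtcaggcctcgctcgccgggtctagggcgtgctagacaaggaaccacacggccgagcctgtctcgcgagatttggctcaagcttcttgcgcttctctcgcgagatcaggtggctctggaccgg

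A promoter entry was matched for 8 members, all but Idh3a. The GENCODE genes of Ogdh, Suclg1 and Sdha also begin within their stretches. CCAAT was found in 6 of the 8 (Idh1, Idh2, Cs, Ogdh, Sdha and Fh1) and in 33.8% of all 32851 promoters of the same length. GGGCGG was found in 6 of the 8 (Idh1, Idh2, Cs, Ogdh, Fh1 and Mdh2) and in 32.7% of all promoters. Both boxes were present in Idh1 and Idh2, which fell, and in Cs, which rose. The members' promoters held 52.8% to 67.2% G and C, against a median of 52.4% over all promoters. Fh1 (52.8%) and Suclg1 (53.2%) were close to that median. The NRF1 motif was found in Sdha alone of the 8 (3.74% of all promoters). None of the 8 held CCGGAAGT (ETS and GABP, 2.88% of all promoters), AAGATGGCG (YY1, 0.606%), CACGTG (E-box, 6.02%), TCAAGGTCA (ERR, 0.387%) or TGATTNAT (PBX-HOX, 2.82%). All letters were searched on both strands and no match overlapped a match to another motif.

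The catalytic subunit of the NAD-dependent enzyme went the other way. Idh3a (chromosome 9, 54586334 to 54604661) was at 149, 135 and 141 CPM in WT replicates 1, 2 and 3 and at 170, 197 and 202 CPM in NHD13 replicates 1, 2 and 3, with no overlap. It rose 1.34-fold, from 142 CPM ± 6.9 to 190 CPM ± 17 (n = 3 each, log2 change 0.42, SE 0.08, adjusted p = 0.00673). Its partner subunit Idh3b rose as well, from 117, 113 and 117 CPM to 127, 146 and 153 CPM (log2 change 0.30, SE 0.08, adjusted p = 0.0243). Idh3g, the other regulatory subunit, was at 157, 163 and 161 CPM in WT and 146, 149 and 157 CPM in NHD13 and did not pass (log2 change -0.09, SE 0.06, adjusted p = 0.27). Idh3b lost its call on leaving out any single library but NHD13 replicate 1 (adjusted p = 0.0618 to 0.107).

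Within a library, ratios between genes do not depend on the scaling of the libraries. Per length of merged exons, there were 1.59, 1.70 and 1.68 Idh1 reads for each Idh3a read in WT replicates 1, 2 and 3 and 1.04, 0.633 and 0.548 in NHD13 replicates 1, 2 and 3. For Idh2 to Idh3a the ratio was 2.42, 2.54 and 2.37 in WT and 1.71, 1.13 and 1.16 in NHD13. Neither ratio overlapped between the groups, and each had the smallest p that an exact two-sided permutation test of 3 against 3 can give (p = 0.1, adjusted to 0.108 over 13 ratios). Idh1 to Idh2 was 0.656, 0.669 and 0.71 in WT and 0.606, 0.562 and 0.472 in NHD13 (exact permutation p = 0.1, adjusted 0.108). Idh3a to Cs, by contrast, was 0.599 ± 0.036 in WT and 0.593 ± 0.0182 in NHD13 (n = 3 each, exact permutation p = 0.9). It was the only one of the 13 ratios without the smallest p. Mdh2, Ogdh, Sdha, Fh1 and Suclg1 to Cs, and Idh3a to Idh3b and to Idh3g, also had an exact permutation p of 0.1. The smallest p is thus not particular to Idh1 and Idh2. Of the length-scaled reads of the 5 isocitrate dehydrogenase genes, Idh1 and Idh2 together took 49.2%, 48.5% and 48.1% in WT and 42.6%, 33.3% and 32.3% in NHD13. The ratios and this share depend on the length used. With the longest protein-coding transcript, a length chosen after seeing the data, the mean ratio of Idh1 to Idh3a was 1.01 ± 0.0368 in WT and 0.453 ± 0.16 in NHD13, where merged exons gave 1.66 ± 0.0601 and 0.74 ± 0.261. The mean share of Idh1 and Idh2 was then 38.9% ± 0.548 in WT and 27.8% ± 4.88 in NHD13, and the groups again did not overlap.

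**Figure D2:**
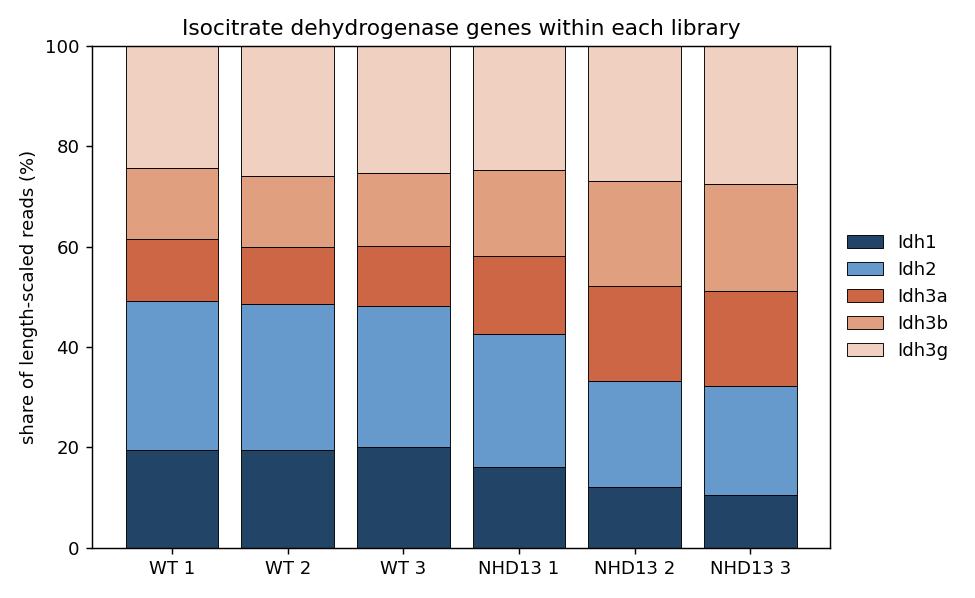
Share of length-scaled reads (y axis, percent) that each of the 5 isocitrate dehydrogenase genes took in each library (x axis), with merged exon lengths. The Idh1 part shrinks from between 19.4% and 20% in WT to between 10.4% and 16.1% in NHD13, and the Idh3a part grows from between 11.4% and 12.3% to between 15.5% and 18.9%.

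Cs, the enzyme that joins acetyl-CoA to oxaloacetate, rose about as much as Idh3a. It lies on chromosome 10 (128337734 to 128362479) and was at 266, 272 and 272 CPM in WT replicates 1, 2 and 3 and at 317, 390 and 388 CPM in NHD13 replicates 1, 2 and 3. The WT libraries lay close together and below every NHD13 library. The rise was 1.35-fold, from 270 CPM ± 3.16 to 365 CPM ± 41.6 (n = 3 each, log2 change 0.44, SE 0.08, adjusted p = 0.00722). Aco1, the cytosolic aconitase, which is also the iron regulatory protein IRP1, rose from 51.2, 49.6 and 46.7 CPM to 53.9, 75.5 and 73.7 CPM (log2 change 0.46, adjusted p = 0.0241). Its call was lost on leaving out any single library but NHD13 replicate 1 (adjusted p = 0.0554 to 0.098). The exons of Mdh1, described next, and of Idh3b share 52 and 5 bases with Wdpcp and Nop56, which lie on the opposite strand, and counts there may be mixed.

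Malate dehydrogenase split by compartment. Mdh2, the mitochondrial enzyme (chromosome 5, 135778480 to 135790398), was at 299, 296 and 284 CPM in WT and at 329, 371 and 368 CPM in NHD13. It rose 1.22-fold, from 293 CPM ± 8.26 to 356 CPM ± 23.3 (n = 3 each, log2 change 0.28, SE 0.07, adjusted p = 0.0149), with no overlap between the groups. Mdh1, the cytosolic enzyme of the malate-aspartate shuttle, fell from 216, 214 and 215 CPM to 185, 179 and 175 CPM (log2 change -0.26, SE 0.06, adjusted p = 0.0105). Mdh2 was the member whose call depended most on single libraries: its adjusted p was 0.0524 without WT replicate 2, 0.0742 without WT replicate 3, 0.074 without NHD13 replicate 2 and 0.0663 without NHD13 replicate 3. The call of Mdh1 was lost without WT replicate 3 or NHD13 replicate 3 (adjusted p = 0.0509 for each).

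**Figure D3:**
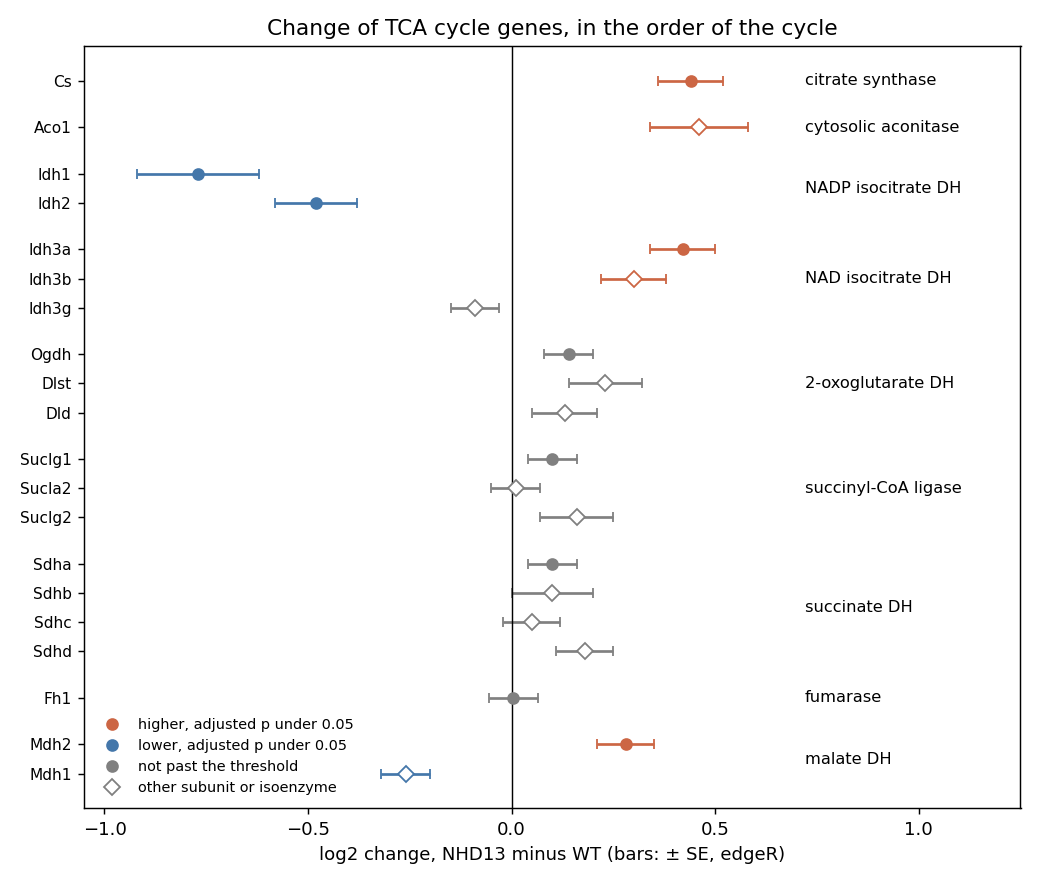
Log2 change from WT to NHD13 (x axis, bars ± SE from edgeR) of the members (filled circles) and of other tested subunits and isoenzymes (open diamonds), listed in the order of the cycle. Idh1 (-0.77), Idh2 (-0.48) and Mdh1 (-0.26) are the genes past the threshold below 0, and Cs, Aco1, Idh3a, Idh3b and Mdh2 are those above it.

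The members from 2-oxoglutarate to fumarate had small changes. Ogdh, the catalytic E1 subunit of 2-oxoglutarate dehydrogenase (chromosome 11, 6291633 to 6356642), was at 280, 274 and 266 CPM in WT and 299, 296 and 309 CPM in NHD13. The groups did not overlap, but the log2 change of 0.14 (SE 0.06) did not pass (adjusted p = 0.0864). It passed without NHD13 replicate 1 (adjusted p = 0.0341) and without replicate 1 of both groups (adjusted p = 0.0183). The other subunits of that complex, Dlst and Dld, were not past the threshold either (log2 changes 0.23 and 0.13, adjusted p = 0.0814 and 0.211).

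Suclg1, the subunit common to both succinyl-CoA ligases (chromosome 6, 73248382 to 73276911), was at 109, 107 and 113 CPM in WT and 120, 120 and 115 CPM in NHD13. Its log2 change of 0.10 (SE 0.06) was not past the threshold (adjusted p = 0.232), though the libraries did not overlap. The partner subunits of the ligases, Sucla2 and Suclg2, had log2 changes of 0.01 and 0.16 (adjusted p = 0.953 and 0.192). Sdha, the flavoprotein of succinate dehydrogenase, which is also complex II of the respiratory chain (chromosome 13, 74322254 to 74350280), was at 355, 347 and 362 CPM in WT and 362, 396 and 387 CPM in NHD13. WT replicate 3 and NHD13 replicate 1 were level, so the groups met, and the log2 change of 0.10 (SE 0.06) did not pass (adjusted p = 0.218). It passed without NHD13 replicate 1 (adjusted p = 0.0379) and without replicate 1 of both groups (adjusted p = 0.0462), with a log2 change of 0.14 in each. The other subunits of the complex, Sdhb, Sdhc and Sdhd, had log2 changes of 0.10, 0.05 and 0.18 (adjusted p = 0.449, 0.605 and 0.0986).

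Fh1, fumarase (chromosome 1, 175600374 to 175625635), had the smallest difference of the 9. It was at 118, 125 and 124 CPM in WT and 116, 127 and 125 CPM in NHD13, so that the libraries overlapped fully. The means were 122 CPM ± 3.98 and 122 CPM ± 5.57 (n = 3 each, log2 change 0.0044, SE 0.06, adjusted p = 0.968), and the sign of this difference changed with the scaling. A p that misses the threshold does not show that the level was the same in both groups.

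In all 5 members that passed the threshold, NHD13 replicate 1 lay between the WT mean and NHD13 replicates 2 and 3. On the log2 scale its distance from the WT mean was 41.1% of that of replicates 2 and 3 for Idh1, 41.2% for Idh2, 44% for Cs, 50.5% for Mdh2 and 53.8% for Idh3a. For Idh1 the 3 NHD13 libraries were 0.41, 0.91 and 1.08 below the WT mean on this scale. Without NHD13 replicate 1, the log2 change of Idh1 was -0.99 and that of Idh2 -0.60.

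**Figure D4:**
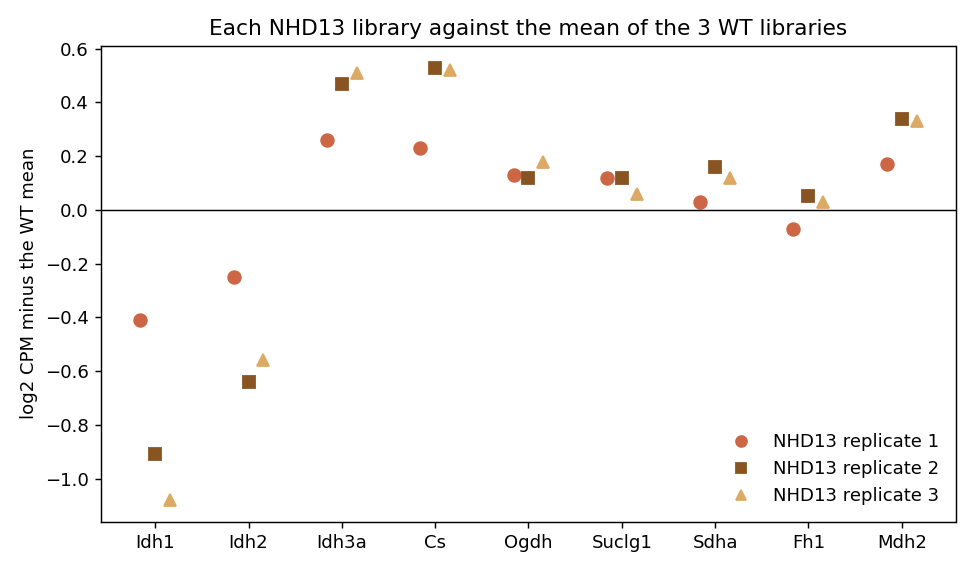
Difference of each NHD13 library from the mean of the 3 WT libraries (y axis, log2 CPM) for the 9 members (x axis). NHD13 replicate 1 (circles) is closer to 0 than replicates 2 and 3 for Idh1, Idh2, Idh3a, Cs and Mdh2.

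Markers of cell types that the sort may hold also differed between the groups, and in some lists NHD13 replicate 1 again lay nearest to WT. Of all tested genes 15% were called higher and 15.3% lower. The erythroid list had 8 genes in the table, and 5 of the 7 tested rose. Its sum lay between 1237 and 1410 CPM in WT, against 1486, 2358 and 2260 CPM in NHD13 replicates 1, 2 and 3. None of the 7 granulocyte-monocyte progenitor genes passed the threshold. They summed to between 13251 and 17073 CPM in WT, against 16988, 9101 and 9274 CPM in NHD13, so that replicate 1 lay within the WT range. Among mature neutrophil genes 8 of 10 tested fell, from 32931 to 50920 CPM in WT to 22492, 31192 and 28176 CPM in NHD13. All 7 multipotent and lymphoid progenitor markers fell, from 612 to 701 CPM to 373, 236 and 259 CPM, and of 12 S-phase genes 5 rose, from 4434 to 4895 CPM to 4832, 6080 and 5897 CPM. For mast cells and basophils 6 of 6 tested genes fell, and the sum went from 265 to 588 CPM to 61.5, 49 and 74.2 CPM. Of 7 tested monocyte and macrophage genes 5 fell, from between 1185 and 1335 CPM to 904, 657 and 641 CPM, and of 8 tested dendritic cell genes 6 fell, from between 342 and 492 CPM to 152, 102 and 117 CPM. Of the 13 long-term HSC markers 10 were tested, and Mecom, Prdm16 and Mllt3 rose (log2 changes 2.73, 1.72 and 0.74) while Hlf, Tek and Ly6a fell (-1.96, -1.41 and -0.65). Their sum, between 333 and 355 CPM in WT and between 321 and 360 CPM in NHD13, was mostly Kit. Markers of B cells summed to 18.5 to 25.6 CPM in WT and 12.1 to 16.7 CPM in NHD13. The part of these lists in the changes of the 9 members was not tested.

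The calls of Idh1, Idh2, Idh3a and Cs held in 14 of the 15 alternative settings and that of Mdh2 in 10. With the share of Y-linked counts as a covariate, which left 111 genes higher and 175 lower in all, no member passed. The log2 changes there were -0.95 for Idh1 (adjusted p = 0.0856), -0.53 for Idh2 (0.127), 0.41 for Idh3a (0.136), 0.48 for Cs (0.109) and 0.28 for Mdh2 (0.204). The Y-linked share was 0.0109% to 0.0194% of the counts in WT and 0.0177% to 0.028% in NHD13. The covariate thus went partly with the group, and their parts in the changes cannot be fully told apart.

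Levels can be compared between genes only per length. In CPM per kilobase of merged exons, WT libraries had the most RNA for Sdha (86 ± 1.82, n = 3) and Mdh2 (82.3 ± 2.32), followed by Idh2 (68.3 ± 2.64), Ogdh (50.1 ± 1.27), Cs (46.7 ± 0.548), Idh1 (46.3 ± 0.794), Fh1 (36 ± 1.17), Idh3a (28 ± 1.36) and Suclg1 (23.8 ± 0.651). Cs and Idh1 overlapped in WT with this length, but not with the longest protein-coding transcript (92.3 ± 1.08 for Cs and 55.7 ± 0.955 for Idh1). In NHD13 Cs was at 63.2 ± 7.19 and Idh1 at 27.1 ± 6.86 per kilobase of merged exons, and Idh1 went from position 6 to position 8 of 9 and Idh3a from 8 to 6. At 36.1 ± 1.64, Fh1 overlapped with Idh3a (37.4 ± 3.34), and with Idh1 in NHD13 replicate 1 alone. With the length of the longest protein-coding transcript the order changed, most of all for Suclg1, which moved from position 9 to 5 in WT. Sdha and Mdh2 were the top pair in both groups under both lengths, Idh2 was at position 3 in WT under both, and Idh1 was lower in the order in NHD13 than in WT under both (positions 7 and 9 with transcript length).

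Beyond the members, 8 lists of related genes held 87 genes, of which 81 were tested. Of these 17 rose and 12 fell, or 21% and 14.8%, beside the 15% and 15.3% of all tested genes. Their median log2 change was 0.16. Without NHD13 replicate 1 the counts were 37 higher and 16 lower, where 3012 and 2966 of 12269 tested genes were. On leaving out any other single library they were 8 to 11 higher and 5 to 10 lower. Over all tested genes these settings gave 760 to 1208 higher and 957 to 1615 lower. Without NHD13 replicate 1, genes called higher numbered 6 in the pyruvate list, 4 among carriers and acetyl-CoA enzymes, 4 in the NADPH list (with 4 lower) and 3 in the anaplerosis list (with 3 lower). The remaining TCA cycle subunits and isoenzymes had 3 higher and 1 lower of 12 tested (25% and 8.33%, median 0.15). All 3 calls of higher genes were lost on leaving out any single library but NHD13 replicate 1, and 8 genes were called higher without that one. Ogdhl, a brain form of Ogdh, was at 0 to 0.207 CPM and was not tested.

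**Figure D5:**
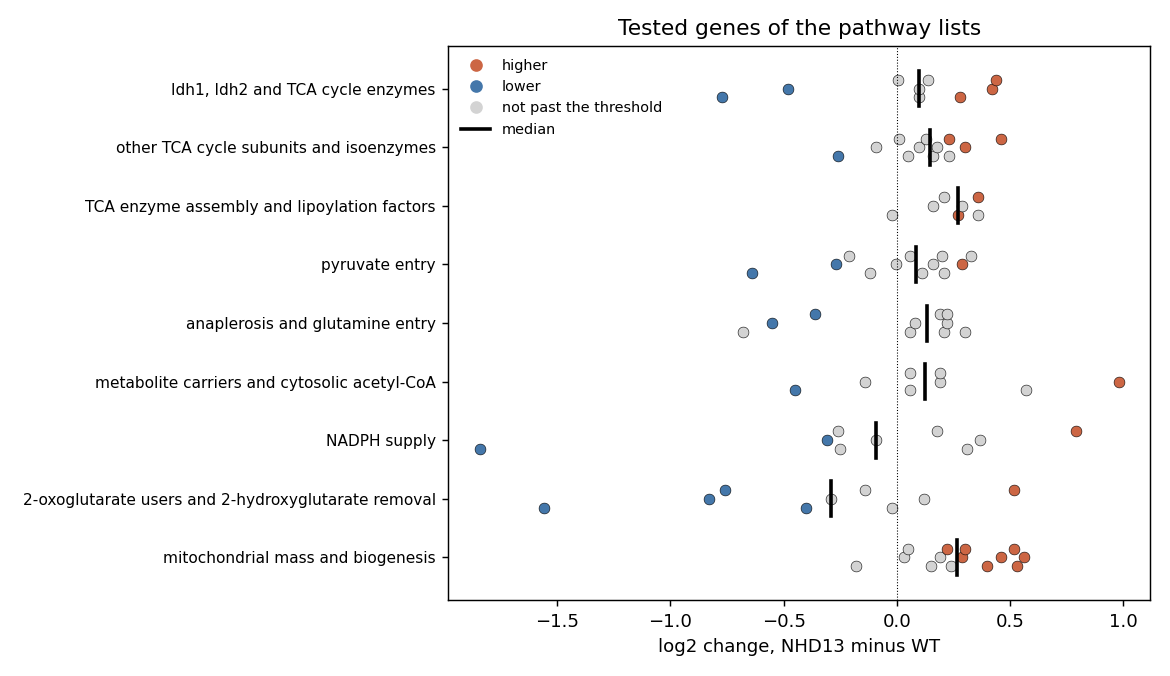
Log2 change from WT to NHD13 (x axis) of every tested gene of the 9 members and the 8 related lists (rows), coloured by call, with the median of each list as a bar. The list medians lie between -0.29 (2-oxoglutarate users and 2-hydroxyglutarate removal) and 0.27 (assembly and lipoylation factors).

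Of the related lists, that of mitochondrial import, channel, chaperone and biogenesis genes had the highest share of genes called higher in the main fit. Of 14 tested 8 rose (57.1%, against 15% of all tested genes), with a median log2 change of 0.26. Tomm40, the channel of the outer membrane import complex, went from 78.5, 75 and 80.9 CPM to 107, 119 and 113 CPM (log2 change 0.53, adjusted p = 0.00151). The matrix chaperone Hspd1 (HSP60) went from 684, 567 and 669 CPM to 867, 985 and 978 CPM (log2 change 0.56, adjusted p = 0.00338), and Hspa9 (mortalin) rose too (log2 change 0.40). The mitochondrial RNA polymerase Polrmt rose from 29.6, 32.3 and 25.4 CPM to 39.1, 40.9 and 39.8 CPM, and the coactivator Pprc1 and the anion channel Vdac1 rose by 0.52 and 0.29 on the log2 scale. The other 2 that rose were Tomm20, a receptor of the import complex whose libraries overlapped between the groups, and the channel Vdac2. The call of Vdac1 was lost without WT replicate 3 or NHD13 replicate 2 (adjusted p = 0.057 to 0.0609), that of Tomm20 without WT replicate 1 or 2 or NHD13 replicate 2 or 3 (0.125 to 0.158) and that of Vdac2 on leaving out any single library but NHD13 replicate 1 (0.0801 to 0.176). The list thus had 5 higher of 14 without NHD13 replicate 2, 6 without any one of the WT libraries or NHD13 replicate 3, and 9 without NHD13 replicate 1. Without NHD13 replicate 1, 3012 of all 12269 tested genes were higher, and 760 to 1208 without any other single library. The coactivator Ppargc1a was at 0 to 0.158 CPM and was not tested.

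Genes for 2-oxoglutarate-dependent enzymes and for removal of 2-hydroxyglutarate were lower on balance, with 4 of 9 tested lower (44.4%, against 15.3% of all tested genes) and 1 higher. Without NHD13 replicate 1 there were 5 lower, where 2966 of all 12269 tested genes were. On leaving out any other single library there were 2, where 957 to 1615 of all tested genes were lower. Tet1, which oxidises 5-methylcytosine, fell from 22.6, 20.8 and 21.3 CPM to 14.9, 10.8 and 12.4 CPM (log2 change -0.76, SE 0.13, adjusted p = 0.0045). Tet2 fell from 65.4, 72.1 and 71.3 CPM to 64.6, 49.2 and 44.6 CPM (log2 change -0.40, adjusted p = 0.0451), and Tet3 was at 140 to 157 CPM in WT and 136 to 161 CPM in NHD13 (adjusted p = 0.867). The prolyl hydroxylase Egln3, which acts on hypoxia-inducible factors, fell from 32.6, 28.9 and 28.6 CPM to 24.8, 13.3 and 12.5 CPM. Tet2 and Egln3 lost their calls on leaving out any single library but NHD13 replicate 1 (adjusted p = 0.0714 to 0.144 for Tet2 and 0.0801 to 0.096 for Egln3). Adhfe1, a hydroxyacid-oxoacid transhydrogenase, fell from 3.08, 2.83 and 4.6 CPM to 1.28, 1.39 and 0.898 CPM. D2hgdh, which oxidises the D form of 2-hydroxyglutarate, was at 26.1, 27.2 and 27.7 CPM and 22.2, 25.3 and 26.1 CPM and did not pass (adjusted p = 0.28).

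At the entry of pyruvate, 1 of 12 tested genes rose and 2 fell (8.33% and 16.7%, against 15% and 15.3% of all tested genes). Dlat, the E2 subunit of pyruvate dehydrogenase, rose from 82.3, 78.1 and 80.6 CPM to 92.6, 98.1 and 104 CPM (log2 change 0.29, adjusted p = 0.015). Pdp1, the phosphatase that activates the complex, fell from 15.2, 17.7 and 18.3 CPM to 11.6, 10.9 and 10.3 CPM (log2 change -0.64, adjusted p = 0.00598), and Mpc2, a subunit of the pyruvate carrier, fell by 0.27 on the log2 scale (adjusted p = 0.042). The calls of Dlat (adjusted p = 0.0602 to 0.0756) and Mpc2 (0.0693 to 0.131) were lost on leaving out WT replicate 2 or 3 or NHD13 replicate 2 or 3. Mpc2 was also not past the threshold in DESeq2 (adjusted p = 0.0554) or with no filter on low counts (0.0576).

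Of 10 tested genes that feed or drain the cycle, 2 passed the threshold, where 30.3% of all tested genes did. Both were lower (20%, against 15.3% of all tested genes). Glud1, which converts glutamate to 2-oxoglutarate in mitochondria, fell from 251, 250 and 255 CPM to 204, 156 and 157 CPM (log2 change -0.55, SE 0.10, adjusted p = 0.00636). Got1, the cytosolic aspartate aminotransferase, fell from 27.3, 31.7 and 31.5 CPM to 22.1, 22.3 and 26 CPM (adjusted p = 0.0298). The call of Got1 was lost without WT replicate 2, WT replicate 3 or NHD13 replicate 2 (adjusted p = 0.0949 to 0.113).

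Among 8 carriers and acetyl-CoA enzymes, Acss1, the mitochondrial acetyl-CoA synthetase, had the largest rise of all genes in the lists, from 75.6, 86.4 and 94.4 CPM to 113, 199 and 195 CPM (log2 change 0.98, SE 0.20, adjusted p = 0.00791). Slc25a13, an aspartate-glutamate carrier of the malate-aspartate shuttle like the enzymes Mdh1 and Got1, fell from 39.2, 33.7 and 35.8 CPM to 31.7, 22.6 and 25.4 CPM (adjusted p = 0.0301). Its call was lost on leaving out any single library but NHD13 replicate 1 (adjusted p = 0.0672 to 0.0987). The other aspartate-glutamate carrier, Slc25a12, did not pass (log2 change 0.06, adjusted p = 0.514). Of other genes of this shuttle, Got2 (0.21, adjusted p = 0.0843) and Slc25a11 (-0.14, adjusted p = 0.168) did not pass either, and Mdh2 rose.

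Of 9 tested genes for other sources of NADPH, 1 rose and 2 fell (11.1% and 22.2%, against 15% and 15.3% of all tested genes). Mthfd1, the cytosolic folate dehydrogenase, rose from 241, 228 and 248 CPM to 319, 453 and 467 CPM (log2 change 0.79, SE 0.13, adjusted p = 0.00423). G6pdx, which starts the pentose phosphate pathway, fell from 345, 416 and 389 CPM to 297, 333 and 299 CPM (log2 change -0.31, adjusted p = 0.0249), and its call was lost without WT replicate 2, WT replicate 3 or NHD13 replicate 3 (adjusted p = 0.0803 to 0.0971). The folate dehydrogenase gene Aldh1l1 fell from a low level, 1.58, 1.94 and 1.88 CPM, to 0.45, 0.348 and 0.691 CPM. The exons of G6pdx share 418 bases with Ikbkg on the other strand, so its count is uncertain. Those of Aldh1l1 share 105 bases with a gene on the same strand and 499 with one on the other. Tomm40, Pprc1, Adhfe1, Acss1 and Hspd1, also named here as called, share 112 to 258 exon bases with genes on the other strand. Sdhaf2, Lias, Mthfd1, Tet2 and Vdac2 share 25 to 94, and counts there may be mixed as well.

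Of 7 factors for assembly of succinate dehydrogenase and for the lipoyl cofactor, which 2-oxoglutarate dehydrogenase needs, 2 rose. This was 28.6%, against 15% of all tested genes. The lipoyl synthase Lias went from 38.3, 39.2 and 36.2 CPM to 40.4, 54.2 and 51.8 CPM (adjusted p = 0.0401), and Sdhaf2, which attaches FAD to Sdha, from 50.4, 45.9 and 47.3 CPM to 53.6, 58.3 and 61.2 CPM (adjusted p = 0.0312). On leaving out WT replicate 2 or 3 or NHD13 replicate 2 or 3 both calls were lost, and that of Lias also without WT replicate 1 (adjusted p = 0.0958 to 0.156 for Lias and 0.106 to 0.137 for Sdhaf2). Both were also lost with upper-quartile scaling (adjusted p = 0.0607 and 0.0521).

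The genes whose levels over the 6 libraries were most like those of Idh1, by Pearson's r of log2 CPM over 6098 well expressed genes (mean log2 CPM 5 or more), were Dscr3 (r = 0.9981), Ostm1 (0.997) and Mtpn (0.9965). Among those most like Idh2 were Phactr2 (0.9965) and Tmem229b (0.9961). These values describe 6 libraries in 2 groups: 30 genes had an r above 0.99 with Idh1 and 27 with Idh2, and they share the libraries and the difference between the groups. Phactr2 went from 89, 89.4 and 84.3 CPM to 73.1, 56.6 and 59.3 CPM, a log2 change of -0.48, as for Idh2. Ostm1 shared the order of the libraries with Idh1 but not the size of the change (log2 change -0.15, adjusted p = 0.113).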

How the data were processed

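Gene expression was measured by RNA sequencing in 3 WT and 3 NHD13 libraries. The deposited table holds raw counts, which the authors made with Bowtie2 2.2.1 and HTSeq 0.5.4p3 on mm10, per the submitters' processing notes. The annotation and strand setting are not given in any source used. Columns were matched to samples by group letters and replicate number, and 0 columns were left out.

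Genes were kept by filterByExpr (minimum count 10), scaled by TMM and tested with edgeR 4.0.16 (robust quasi-likelihood F test, group as the term, two-sided) in R 4.3.3, with Benjamini-Hochberg adjustment over 12013 genes. The SE was taken as the size of the log2 change over the root of F. The test was tried on simulated data. Alternatives were DESeq2 1.42.0, limma-voom (limma 3.58.1), other scalings, no filter, libraries left out, the replicate number as a block and the Y-linked share as a covariate. Log2 CPM values used a prior count of 2.

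Members, lists and alternatives were chosen with earlier results of these data known. The naming rule took all members, up to 6 called genes of each list by lowest p (or the 2 most abundant), and 3 genes most like Idh1 and Idh2; partner subunits of the members, other genes named without a call, markers, Tomm20 and Vdac2 were added after their values were seen. A few genes that the rule names are not reported here. GENCODE vM21 (GRCm38, that is mm10) gave positions and exon lengths. The exons of no member overlap another gene's, and no other gene's transcript matched a member over at least 200 bases at 90% identity.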

Additional observations from a re-analysis of the deposited data

How the results depend on the processing

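The members called higher were 3 and those called lower 2 under DESeq2, limma-voom, the 3 other scalings of edgeR, no low-count filter and the replicate block. Leaving out 1 library, or replicate 1 of both groups, gave 2 to 5 members higher and 2 lower, and adding the Y-linked share to the fit left 0 higher and 0 lower. Over all tested genes the libraries left out gave 760 to 3244 higher and 957 to 3245 lower, and the covariate 111 and 175. The other pathway genes went from 17 higher and 12 lower to between 8 and 38 higher and between 5 and 19 lower with libraries left out, and to 0 and 0 with the covariate. The sign of Fh1 changed, at log2 changes of -0.04 with upper-quartile factors and -0.0012 with library totals, and between -0.04 and 0.04 with libraries left out. With transcript length, tried after the data had been seen, the Idh1 and Idh2 share was 38.9% in WT and 27.8% in NHD13. The replicate numbers pair the samples only by name, since the deviations of same-numbered libraries correlated at 0.249, 0.0632 and 0.175. With the replicate block 22 other pathway genes were higher and 15 lower, and 2007 and 2233 of all tested genes. Upper-quartile scaling moved the median of all genes by -0.04. For all tested genes and for the other pathway genes, counts fell on leaving out any single library but NHD13 replicate 1, and rose without that one. Each member had 875 to 5688 counts in every library.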

Other observations

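The promoter of Sdha held 3 matches to the NRF1 motif, where 3.74% of all promoters held at least 1. Their first bases lie 98, 55 and 10 bases before the start that RefSeq lists. The last of these lies within the GENCODE span of Sdha, which runs to 74350280 on the minus strand. Sdha itself averaged 355 CPM ± 7.52 in the WT libraries and 381 CPM ± 17.7 in the NHD13 libraries (SD, n = 3, edgeR adjusted p = 0.218), and the factor's own gene Nrf1 was at 70.1, 73.3 and 65.6 CPM and 73.6, 82.6 and 75.3 CPM (adjusted p = 0.17). Summed, the 9 members made up 0.187% ± 0.00313 of a WT library and 0.203% ± 0.00858 of an NHD13 library (SD, n = 3). The sum was higher in every NHD13 library (0.193%, 0.207% and 0.209%) than in any WT library (0.184% to 0.191%), with Idh1 and Idh2 lower and Cs, Idh3a and Mdh2 higher within it.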
